A study of Mus musculus with 27 samples.

Results

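TRAP1 is the mitochondrial paralog of the cytosolic chaperone HSP90, and it was followed here together with both cytosolic HSP90 isoforms and with the main chaperones and proteases of the mitochondrial matrix. The genes were taken by name from the deposited count table, which lists 50559 genes, and all 10 of 10 were found and passed the filter on low counts that left 13614 genes for testing. They are Trap1, the cytosolic HSP90 genes Hsp90aa1 and Hsp90ab1, the chaperonin pair Hspd1 and Hspe1, the mitochondrial HSP70 gene Hspa9, the proteases Lonp1, Clpp and Clpx, and the prohibitin gene Phb2.

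Chaperones of the HSP90 family bind client proteins late in folding and work with ATP and, in the cytosol, with many co-chaperones. Proteins that enter the mitochondrial matrix are pulled in and held by the mitochondrial HSP70, folded inside the chaperonin, and degraded by LON or by the CLP protease when they fail to fold. In macrophages, as in other cells, transcripts of these chaperones are known to respond to heat, to unfolded proteins and to growth signals.

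The libraries come from bone marrow cells of female C57BL/6 mice, 3 to 4 months old, either wild type (WT) or lacking TRAP1 (TRAP1 KO), that were differentiated with medium of L929 cells as a source of M-CSF. How the Trap1 allele was made is not given in the sources used here. Macrophages were left unpolarized (Mφ, M0 in the labels) or were polarized with 10 ng/mL IL-4 for 24 h (M2), and then kept for 48 h in control medium (DMEM) or in medium conditioned by malignant peripheral nerve sheath tumor cells (MPNST-CM). The study's main tumor model is sMPNST, a murine line that lacks Nf1 and p53. The 8 groups of cell, medium and genotype hold 3 libraries each in batch 1, or 24 in all, and levels below are TMM-scaled CPM, counts relative to the library's scaled total, in these libraries, as mean ± SD, n = 3.

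Totals in batch 1 ran from 7037684 to 9089792 counts. The labels do not say whether the libraries of a group came from separate mice, so p-values measure the spread between these libraries, which may be technical. The 9 macrophage markers summed to between 8409 and 13079 CPM in every batch 1 library, whereas T cell, B cell and erythroid markers stayed at or below 0.414 CPM, neutrophil markers between 1.75 and 18 CPM, mast cell or basophil markers at or below 4.40 CPM, and the 7 Schwann cell or fibroblast markers at or below 12.2 CPM, with Sox10 at 0 in 3 of the 4 combinations of genotype and medium. Xist, the RNA that silences an X chromosome in female cells, ranged from 254 to 504 CPM over the 12 libraries of WT cells and did not exceed 1.14 CPM in any of the 12 of TRAP1 KO cells, which goes against the female sex in the labels of the TRAP1 KO mice. This difference runs exactly along genotype, so the 2 cannot be told apart in any WT to KO comparison below. In bulk RNA, fewer cells of a type and less RNA per cell cannot be told apart either.

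Batch 2 holds 3 more libraries, and 2 of them, both labelled TRAP1 KO M2, stood far apart from their groups. In the library labelled TRAP1 KO M2, control medium, replicate 4, Hspa9 was at 441 CPM against 135 to 151 CPM in batch 1, and Lonp1 at 118 CPM against 45.4 to 54.6 CPM, when all 27 libraries were scaled together. In the library labelled TRAP1 KO M2, MPNST-CM, replicate 4, Hspa9 was at 163 CPM against 258 to 270 CPM and Hspd1 at 72.7 CPM against 37.1 to 39.7 CPM. For these genes the library labelled control medium thus lay on the side of the batch 1 MPNST-CM libraries (Hspa9 258 to 270 CPM, Lonp1 63.6 to 66.1 CPM), and the library labelled MPNST-CM on the side of the batch 1 control libraries (Hspa9 135 to 151 CPM, Hspd1 52.3 to 60.3 CPM). Clpx and Phb2 did not follow this in the library labelled control medium. Clpx was there at 15.4 CPM, within the 9.41 to 19.1 CPM of its own batch 1 group. Phb2 was there at 115 CPM, above the 98.5 to 107 CPM of its own batch 1 group, and the batch 1 MPNST-CM libraries lay lower still. In the library labelled MPNST-CM, Clpx was at 17.5 CPM, on the side of the batch 1 control libraries, and Phb2 at 135 CPM, above both batch 1 groups. Whether the medium labels of these 2 libraries were exchanged was not tested. Every value with all 27 libraries that involves TRAP1 KO M2 cells takes the labels as they stand. All groups share the same estimate of the spread in that fit, so adjusted p-values of other comparisons can also depend on these 2 libraries. For Hspa9 by genotype in Mφ in MPNST-CM, groups with no batch 2 library, the log2 fold change was 0.40 ± 0.08 (SE) in batch 1. With all 27 libraries it was 0.38 ± 0.31. The other batch 2 library, WT Mφ in control medium, replicate 4, also lay above its batch 1 group for most of the genes. Trap1 was there at 20.5 CPM against 11.5 to 13.4 CPM, Hsp90aa1 at 374 CPM against 313 to 332 CPM, and Hspa9 at 166 CPM against 122 to 136 CPM. Lonp1 and Clpx lay within that group. Results below rest on batch 1, and the value with all 27 libraries is given where it ended a call. Of 66 differences of single genes called below, 28 were also called with all 27 libraries in the fit. With a term for batch added to that fit, 32 were called.

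Hspd1 and Hspe1 lie head to head on mouse chromosome 1, and their shared promoter is shown because both genes moved together in several comparisons below. Promoters came from RefSeq (GRCm38.p6), where 7 of the 10 genes were matched by symbol. Hspd1 runs on the minus strand from base 55087932 and Hspe1 on the plus strand from base 55088148, with 215 bases between the starts. The stretch at chr1:55088053-55088082 is printed 5′ to 3′ on the strand of each gene, with 3 overlapping heat shock element cores in capitals.
Hspd1: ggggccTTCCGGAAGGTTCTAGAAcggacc
Hspe1: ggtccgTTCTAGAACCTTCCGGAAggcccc
The capitals hold TTCNNGAA, GAANNTTC and TTCNNGAA, each sharing 3 bases with the next, and run from 144 to 127 bases before the Hspd1 start and from 89 to 72 bases before the Hspe1 start. In the 250 bases before each of 32841 mouse starts, GAANNTTC was found in 6.70% and TTCNNGAA in 7.17% on either strand, and the joined form of 18 bases shown in capitals above in 4 promoters, of Hspd1, Hspe1, Arpc2 and Fam149a. The windows of Trap1, Lonp1, Clpp, Clpx and Phb2 held neither letter pattern. The Hspd1 start, distances and stretch above belong to 1 Hspd1 entry. The window of another Hspd1 entry, at chr1:55088244-55088493, held neither pattern, and the 215 bases do not apply to it.

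Trap1 itself was read first, because it checks the genotype. WT Mφ held 13.4, 11.6 and 11.6 CPM in control medium (12.2 ± 1.02) and 16.7, 11.2 and 13.7 CPM in MPNST-CM (13.8 ± 2.75). WT M2 cells held 15.8, 16.3 and 18.8 CPM in control medium (17 ± 1.62) and 10.4, 10.5 and 10.6 CPM in MPNST-CM (10.5 ± 0.0672). All 12 TRAP1 KO libraries of batch 1 held 0 counts. Against a floor of 3 counts per library, Trap1 was therefore at least 30.9-fold higher in WT Mφ in control medium, 36.2-fold in Mφ in MPNST-CM, 37.7-fold in M2 in control medium and 26.5-fold in M2 in MPNST-CM. The 2 counts in the batch 2 library labelled TRAP1 KO M2 in control medium lie under that floor.

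Among WT groups, Trap1 was highest in M2 cells in control medium, although its lowest library there lay below the highest Mφ library in MPNST-CM. In M2 cells, MPNST-CM lowered Trap1 by a log2 fold change of -0.69 ± 0.18 (SE; adjusted p = 0.00798), with no overlap between the libraries. This call was lost without WT M2 control library 4 (log2 -0.57, adjusted p = 0.0627) and with all 27 libraries (adjusted p = 0.179). In Mφ the same contrast gave 0.18 ± 0.18 (adjusted p = 0.536). IL-4 in control medium raised Trap1 by 0.48 ± 0.18 (adjusted p = 0.0434), a call that was lost when any of 9 libraries was left out, with adjusted p from 0.0521 to 0.165. It was also lost with all 27 libraries (adjusted p = 0.554). In MPNST-CM, M2 cells gave -0.40 ± 0.18 against Mφ (adjusted p = 0.121). At 83 to 144 counts per WT library, Trap1 held few counts, and small differences were not detectable at this depth.

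**Figure D1:**
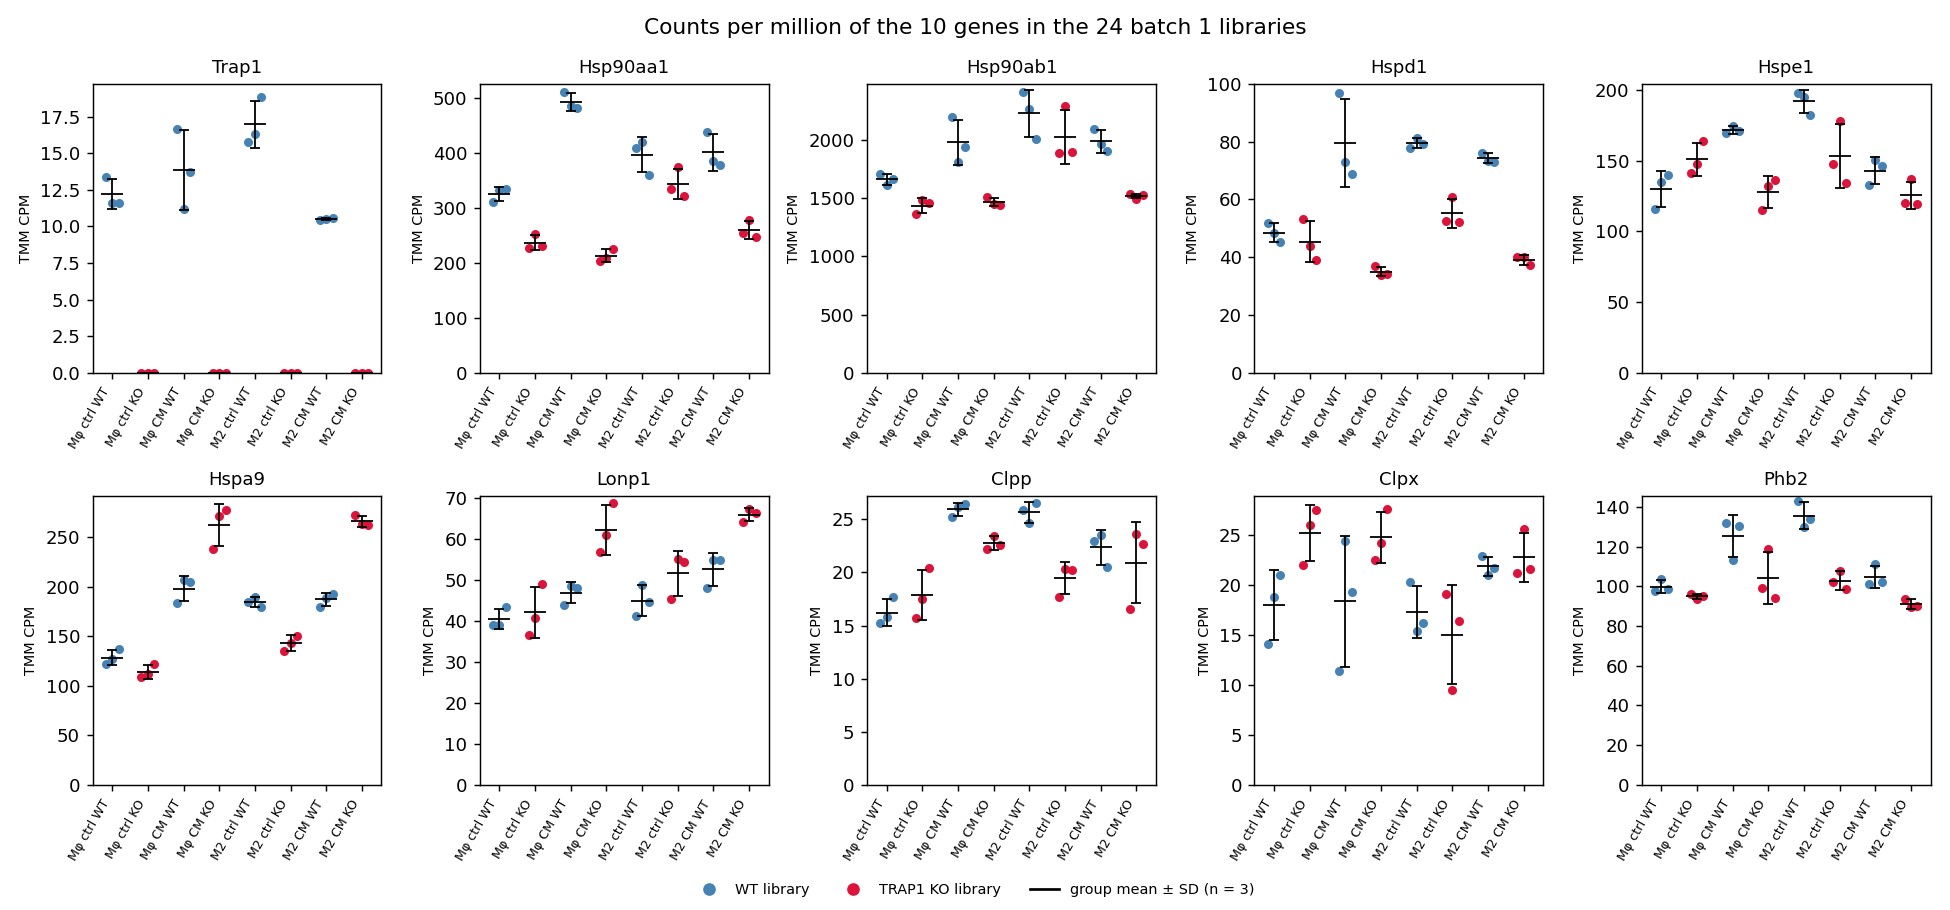
CPM with TMM scaling (y axis, from 0, a scale of its own in each panel) of the 10 genes in the 24 batch 1 libraries, by cell, medium and genotype (x axis; ctrl, control medium; CM, MPNST-CM); points are libraries and bars the mean ± SD of 3. Trap1 is at 0 in every TRAP1 KO library, the lowest means of Hsp90aa1 and Hspd1 (213 and 35 CPM) are those of TRAP1 KO Mφ in MPNST-CM, and Hspa9 is highest in the TRAP1 KO groups in MPNST-CM (262 and 266 CPM).

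The comparison of TRAP1 KO with WT asks how the other genes differ between the genotypes, which also differ in Xist as given above. In Mφ in control medium, 0 of the other 9 genes were higher and 1 was lower in TRAP1 KO. Of all genes tested, 8.64% were called higher and 7.97% lower, shares to which these counts are close. In Mφ in MPNST-CM, 2 were higher and 5 lower, against 19.1% and 19.2% of all genes. In M2 cells in control medium, 0 were higher and 5 lower, against 8.56% and 7.87%. In M2 cells in MPNST-CM, 2 were higher and 3 lower, against 17.2% and 16.8%. The median log2 fold change of the 9 genes was -0.07, -0.27, -0.32 and -0.19 in these comparisons, and that of all genes 0.03, 0.04, 0.02 and 0.05.

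The comparison of MPNST-CM with control medium asks how the tumor cell medium changes the macrophages. In WT Mφ, 7 of the 10 genes rose and 0 fell, where 11.3% of all genes rose and 9.96% fell. In WT M2 cells, 0 rose and 3 fell, against 11.2% and 13.3%. In TRAP1 KO cells, 9 genes could be compared, since Trap1 was at 0. In TRAP1 KO Mφ, 3 rose and 1 fell, against 14.8% and 18.1% of all genes, and in TRAP1 KO M2 cells 3 rose and 4 fell, against 16.7% and 20.2%. The genotype and medium comparisons share groups, so their values are given side by side and no agreement between them is read.

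The difference between the medium effect in TRAP1 KO and that in WT was tested as an interaction. In Mφ it was higher for 1 and lower for 3 of the 9 genes, against 8.17% and 11.5% of all genes, and in M2 cells it was higher for 1 and lower for 1, against 9.36% and 10.8%. M2 cells were also compared with Mφ. In control medium 8 of the 10 genes were higher in WT M2 cells and 0 lower, where 19.1% of all genes were higher and 18.1% lower, and 4 of 9 were higher and 1 lower in TRAP1 KO, against 15.6% and 12.9%. In MPNST-CM, 0 were higher and 3 lower in WT M2 cells, against 11.9% and 13% of all genes, and 1 was higher and 0 lower in TRAP1 KO, against 6.71% and 4.47%.

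**Figure D2:**
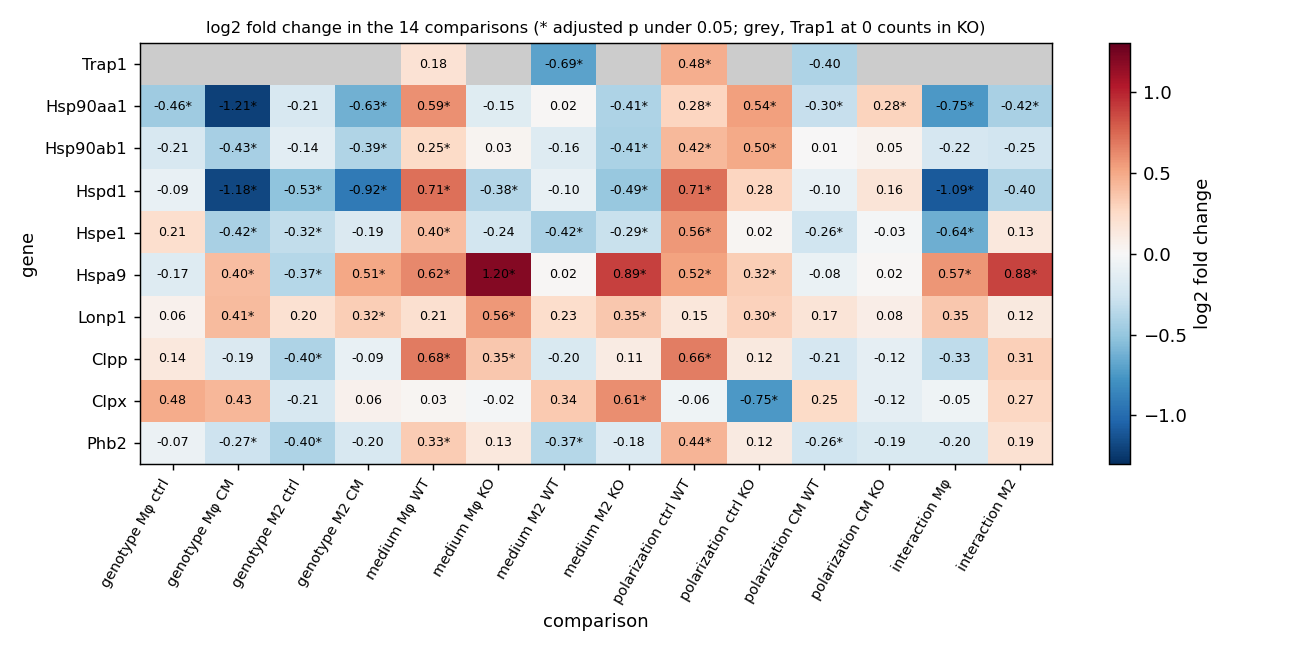
log2 fold change (color and printed value) of each gene (rows) in each of the 14 comparisons (columns): genotype is TRAP1 KO over WT, medium is MPNST-CM over control medium, polarization is M2 over Mφ, and interaction is the medium effect in TRAP1 KO minus that in WT. Asterisks mark adjusted p under 0.05, and grey marks comparisons in which Trap1 is at 0 counts. Hsp90aa1 and Hspd1 are at -1.21 and -1.18 in TRAP1 KO Mφ in MPNST-CM, where Hspa9 is at 0.40.

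Hsp90aa1 encodes the stress-inducible cytosolic HSP90α. It was at 312, 333 and 334 CPM in WT Mφ in control medium and at 511, 485 and 481 CPM in MPNST-CM. TRAP1 KO Mφ held 227, 252 and 231 CPM in control medium and 203, 210 and 226 CPM in MPNST-CM. Every WT Mφ library was thus above every TRAP1 KO Mφ library, and the WT libraries were higher in MPNST-CM than in control medium without overlap. The genotype difference was -0.46 ± 0.08 in control medium (adjusted p = 0.000146) and -1.21 ± 0.08 in MPNST-CM (adjusted p = 4.52e-12), a 2.31-fold lower level. The medium effect was 0.59 ± 0.08 in WT Mφ (adjusted p = 4.79e-06) and -0.15 ± 0.08 in TRAP1 KO Mφ (adjusted p = 0.162), and the interaction was -0.75 ± 0.11 (adjusted p = 1.88e-05). With all 27 libraries both genotype calls in Mφ and the WT medium call remained, and the interaction was no longer called (log2 -0.67 ± 0.21, adjusted p = 0.0660).

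In M2 cells Hsp90aa1 was at 410, 420 and 360 CPM in WT and 335, 374 and 322 CPM in TRAP1 KO in control medium, groups that overlap. In MPNST-CM the WT libraries were at 439, 385 and 379 CPM and the TRAP1 KO libraries at 254, 278 and 247 CPM, with no overlap. The genotype difference was -0.21 ± 0.08 in control medium (adjusted p = 0.0820) and -0.63 ± 0.08 in MPNST-CM (adjusted p = 7.36e-07). MPNST-CM lowered it in TRAP1 KO M2 cells by -0.41 ± 0.08 (adjusted p = 0.000227) and gave 0.02 ± 0.08 in WT M2 cells (adjusted p = 0.927). The interaction in M2 cells was -0.42 ± 0.11 (adjusted p = 0.00923). With batch 2 included, the genotype call in MPNST-CM remained (-0.65, adjusted p = 0.00404), and the medium call in TRAP1 KO (adjusted p = 0.459) and the interaction (adjusted p = 0.651) were lost.

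Hsp90ab1 encodes the constitutive cytosolic HSP90β. Its group means ran from 1434 ± 63.0 CPM in TRAP1 KO Mφ in control medium to 2227 ± 202 CPM in WT M2 cells in control medium. In MPNST-CM the 3 WT Mφ libraries held 2192, 1812 and 1935 CPM and the 3 TRAP1 KO libraries 1510, 1453 and 1438 CPM. The corresponding M2 libraries held 2097, 1963 and 1905 CPM in WT and 1531, 1495 and 1530 CPM in TRAP1 KO. In both cell states the genotypes did not overlap in MPNST-CM, with differences of -0.43 ± 0.08 in Mφ (adjusted p = 0.000151) and -0.39 ± 0.08 in M2 cells (adjusted p = 0.000582), and both calls remained with all 27 libraries. In control medium the difference was -0.21 ± 0.08 in Mφ (adjusted p = 0.0855) and -0.14 ± 0.08 in M2 cells (adjusted p = 0.281). MPNST-CM raised the gene by 0.25 ± 0.08 in WT Mφ (adjusted p = 0.0294), a call lost without WT Mφ MPNST-CM library 1 or 3 or WT Mφ control library 2 or 3, with adjusted p from 0.0517 to 0.175, and with all 27 libraries (adjusted p = 0.228). It lowered the gene by -0.41 ± 0.08 in TRAP1 KO M2 cells (adjusted p = 0.000232), a call lost with all 27 libraries (adjusted p = 0.192).

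The count of Hsp90aa1 relative to that of Hsp90ab1 within a library does not depend on the scaling, though 3′ counts are not scaled by length and the ratio is not one of molecules. It was 0.196 ± 0.0123 in WT Mφ in control medium and 0.250 ± 0.0173 in MPNST-CM, and 0.165 ± 0.00606 and 0.145 ± 0.0114 in TRAP1 KO Mφ. In MPNST-CM the WT Mφ libraries lay between 0.233 and 0.268 and the TRAP1 KO libraries between 0.135 and 0.157, a 1.72-fold difference. In M2 cells in MPNST-CM the ratio was 0.202 ± 0.00697 in WT and 0.171 ± 0.0132 in TRAP1 KO, again without overlap. Each of these genotype differences in MPNST-CM had an exact permutation p of 0.1, the smallest that 3 against 3 libraries allow, and 0.15 after adjustment over 12 comparisons (two-sided). In Mφ in control medium the genotypes did not overlap either (exact permutation p = 0.1, 0.15 after adjustment). In M2 cells in control medium the groups overlapped, at 0.178 ± 0.00773 and 0.170 ± 0.00742 (exact permutation p = 0.3).

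Hspd1 encodes the mitochondrial chaperonin HSP60. In control medium WT Mφ libraries held 51.9, 48.3 and 45.3 CPM and TRAP1 KO libraries 53.1, 44 and 39.2 CPM, which overlap. In MPNST-CM the WT libraries held 96.9, 72.8 and 68.8 CPM and the TRAP1 KO libraries 36.8, 33.9 and 34.1 CPM. MPNST-CM thus moved the gene in opposite directions: it rose by 0.71 ± 0.11 in WT Mφ (adjusted p = 4.15e-05) and changed by -0.38 ± 0.12 in TRAP1 KO Mφ (adjusted p = 0.0136). The genotype difference in MPNST-CM was -1.18 ± 0.12 (adjusted p = 4.68e-09), and the interaction -1.09 ± 0.16 (adjusted p = 1.31e-05). The fall in TRAP1 KO Mφ was lost without TRAP1 KO Mφ control library 1 (log2 -0.25, adjusted p = 0.134) or TRAP1 KO Mφ MPNST-CM library 2 (-0.36, adjusted p = 0.0501), and with all 27 libraries, whereas the rise in WT, the genotype difference and the interaction remained with all 27 libraries.

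In M2 cells Hspd1 was lower in TRAP1 KO in both media. The libraries held 77.8, 81.3 and 79.3 CPM in WT and 52.4, 60.9 and 52.3 CPM in TRAP1 KO in control medium, and 76.2, 73.3 and 73.1 against 40.1, 40.2 and 37.2 CPM in MPNST-CM. The differences were -0.53 ± 0.11 (adjusted p = 0.00169) and -0.92 ± 0.12 (adjusted p = 4.18e-07), and both remained with all 27 libraries at -0.63 and -0.70. The medium effect was -0.10 ± 0.11 in WT M2 cells (adjusted p = 0.592) and -0.49 ± 0.12 in TRAP1 KO M2 cells (adjusted p = 0.00123), the latter not called with all 27 libraries. The interaction in M2 cells did not pass (-0.40 ± 0.16, adjusted p = 0.0876).

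Hspe1 encodes the co-chaperonin HSP10, the lid of the HSP60 ring. It was at 170, 175 and 171 CPM in MPNST-CM in WT Mφ and at 115, 132 and 137 CPM in TRAP1 KO Mφ, a difference of -0.42 ± 0.10 (adjusted p = 0.00112). In control medium the order was the other way, with 116, 135 and 140 CPM in WT and 141, 148 and 164 CPM in TRAP1 KO, and the difference of 0.21 ± 0.10 did not pass (adjusted p = 0.152). MPNST-CM raised Hspe1 by 0.40 ± 0.10 in WT Mφ (adjusted p = 0.00420) and gave -0.24 ± 0.10 in TRAP1 KO Mφ (adjusted p = 0.0640), with an interaction of -0.64 ± 0.14 (adjusted p = 0.00123). When batch 2 was added, the genotype difference remained, and the WT medium effect (adjusted p = 0.0596) and the interaction (adjusted p = 0.0725) were lost. With a batch term as well, the WT medium effect was called (adjusted p = 0.0395).

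In M2 cells Hspe1 fell with MPNST-CM in both genotypes, by a log2 fold change of -0.42 ± 0.10 in WT (adjusted p = 0.00182) and -0.29 ± 0.10 in TRAP1 KO (adjusted p = 0.0220). The second call was lost without TRAP1 KO M2 control library 1 or 2 or TRAP1 KO M2 MPNST-CM library 1 or 3, with adjusted p from 0.0521 to 0.285, and both were lost with all 27 libraries. The TRAP1 KO level was lower in control medium by -0.32 ± 0.10 (adjusted p = 0.0237), which was lost without TRAP1 KO M2 control library 1 or 3 or WT M2 control library 2 or 3 (adjusted p from 0.0652 to 0.137), and gave -0.19 ± 0.10 in MPNST-CM (adjusted p = 0.145).

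Hspd1 and Hspe1 share a promoter but did not keep 1 ratio. Hspe1 counts over Hspd1 counts in MPNST-CM were 2.21 ± 0.401 in WT Mφ and 3.67 ± 0.469 in TRAP1 KO Mφ, and 1.93 ± 0.167 and 3.20 ± 0.198 in M2 cells. The genotypes did not overlap in either, at folds of 1.67 and 1.66. Both had an exact permutation p of 0.1, the smallest possible, and 0.24 after adjustment. In Mφ in control medium the ratios overlapped, at 2.70 ± 0.434 and 3.40 ± 0.765 (exact permutation p = 0.3). In M2 cells in control medium they were 2.41 ± 0.124 in WT and 2.77 ± 0.182 in TRAP1 KO. These too did not overlap (exact permutation p = 0.1, 0.24 after adjustment). Reads of a near-identical copy add uncertainty to Hspd1: the row Hspd1-ps3 held 5.21% as many counts as Hspd1.

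**Figure D3:**
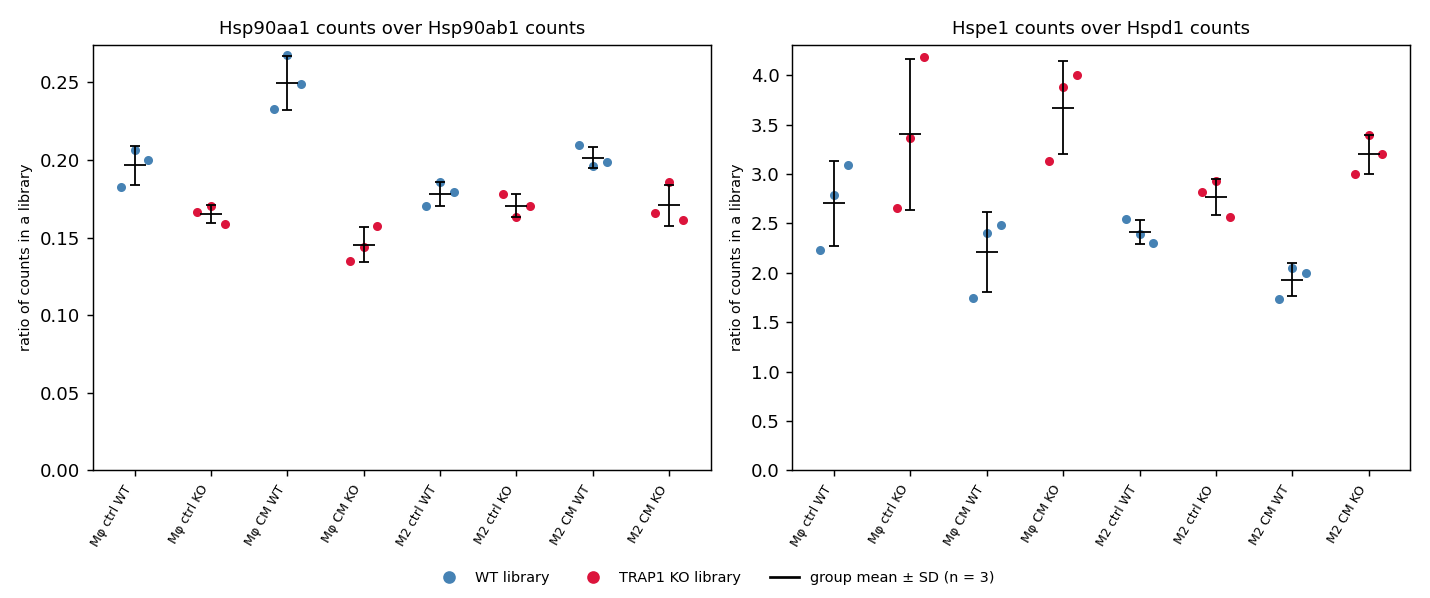
Ratio of raw counts within a library (y axis, from 0) for Hsp90aa1 over Hsp90ab1 (left) and Hspe1 over Hspd1 (right) in the 8 groups (x axis; ctrl, control medium; CM, MPNST-CM); points are libraries and bars the mean ± SD of 3. In MPNST-CM the left ratio is lower and the right ratio higher in TRAP1 KO than in WT without overlap, in Mφ and in M2 cells. In control medium the genotypes also do not overlap for the left ratio in Mφ and the right ratio in M2 cells.

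Hspa9 encodes mortalin, the mitochondrial HSP70 that drives import and hands proteins on to the chaperonin. Unlike Hsp90aa1, Hsp90ab1 and Hspd1, it was higher in TRAP1 KO than in WT in MPNST-CM. MPNST-CM raised it from 121, 127 and 137 CPM to 183, 207 and 204 CPM in WT Mφ, and from 109, 112 and 122 CPM to 238, 271 and 277 CPM in TRAP1 KO Mφ. In WT M2 cells it stayed near the same level, with 184, 190 and 180 CPM in control medium and 179, 189 and 193 CPM in MPNST-CM. In TRAP1 KO M2 cells it went from 135, 143 and 151 CPM to 272, 263 and 262 CPM. The medium effects were 0.62 ± 0.08 (WT Mφ, adjusted p = 1.17e-06), 1.20 ± 0.08 (TRAP1 KO Mφ, adjusted p = 1.63e-12), 0.02 ± 0.08 (WT M2, adjusted p = 0.911) and 0.89 ± 0.08 (TRAP1 KO M2, adjusted p = 3.92e-10).

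The effect of MPNST-CM on Hspa9 was larger in TRAP1 KO in both cell states, by 0.57 ± 0.11 in Mφ (adjusted p = 0.000297) and 0.88 ± 0.11 in M2 cells (adjusted p = 9.20e-07). The gene was thus higher in TRAP1 KO in MPNST-CM, by 0.40 ± 0.08 in Mφ (adjusted p = 0.000134) and 0.51 ± 0.08 in M2 cells (adjusted p = 8.28e-06), and lower in TRAP1 KO M2 cells in control medium (-0.37 ± 0.08, adjusted p = 0.00129). None of these calls was lost without any single batch 1 library. With all 27 libraries only the rise in TRAP1 KO Mφ remained (1.24, adjusted p = 0.00702) among the comparisons named in this paragraph and the one before. There the interaction in M2 cells was 0.07 (adjusted p = 0.968), and the genotype difference in M2 cells in control medium turned to 0.23 (adjusted p = 0.643). Both of these M2 values take the medium labels of the 2 batch 2 TRAP1 KO M2 libraries as they stand, with Hspa9 at 441 CPM in the one labelled control medium and 163 CPM in the one labelled MPNST-CM.

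**Figure D4:**
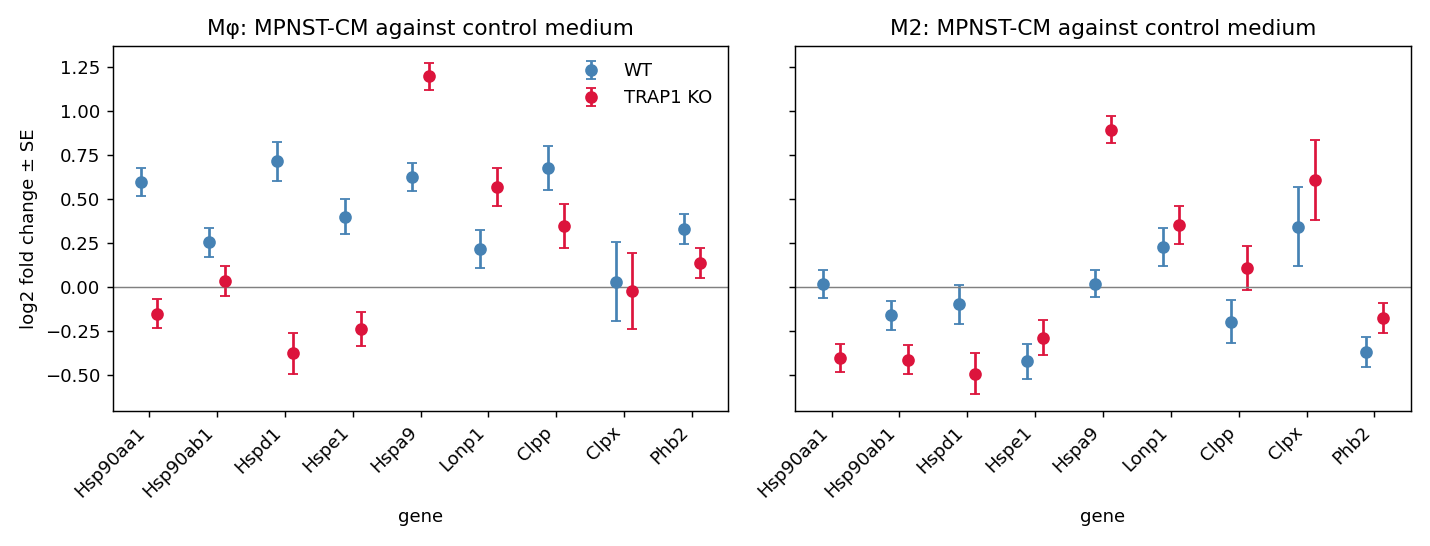
log2 fold change ± SE of MPNST-CM over control medium (y axis) for the 9 genes other than Trap1 (x axis) in Mφ (left) and M2 cells (right), WT in blue and TRAP1 KO in red. In Mφ, Hspd1 is at 0.71 in WT and -0.38 in TRAP1 KO, and Hspa9 is at 0.62 and 1.20; in M2 cells Hspa9 is at 0.02 and 0.89.

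Of the proteases, Lonp1, which encodes the LON protease of the matrix, was likewise higher in TRAP1 KO in MPNST-CM. In MPNST-CM it was at 44, 48.6 and 48.1 CPM in WT Mφ and 56.8, 61.1 and 68.9 CPM in TRAP1 KO Mφ, and at 48.0, 54.9 and 55 CPM against 64.2, 67.2 and 66.3 CPM in M2 cells. The genotypes did not overlap, with differences of 0.41 ± 0.11 (adjusted p = 0.00338) and 0.32 ± 0.11 (adjusted p = 0.0196). The difference in M2 cells was lost when any of 8 libraries was left out (adjusted p from 0.0601 to 0.237), and both were lost with all 27 libraries. MPNST-CM raised Lonp1 in TRAP1 KO, by 0.56 ± 0.11 in Mφ (adjusted p = 0.000145) and 0.35 ± 0.11 in M2 cells (adjusted p = 0.0107), and gave 0.21 ± 0.11 and 0.23 ± 0.11 in WT, which did not pass. The rise in TRAP1 KO M2 cells was lost without TRAP1 KO M2 control library 1 (0.29, adjusted p = 0.0713) and turned to -0.18 with all 27 libraries under those same labels (adjusted p = 0.656), and that in Mφ was lost with them (adjusted p = 0.0784). Neither interaction passed (adjusted p = 0.112 in Mφ and 0.642 in M2 cells).

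Across the 24 libraries the log2 CPM of Hspa9 and Lonp1 had a Pearson r of 0.82, and of 0.81 after subtraction of the group means. For Hsp90aa1 and Hspd1 the same r was 0.90 across libraries and 0.21 within groups. For Hspd1 and Hspe1 it was 0.68 and -0.16. These values are descriptive, and the points share batch, scaling and groups.

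Clpp encodes the proteolytic subunit of the CLP protease, and Clpx its ATP-driven unfoldase. Clpp rose with MPNST-CM in Mφ, from 15.2, 15.8 and 17.7 CPM to 25.2, 26.2 and 26.4 CPM in WT and from 15.8, 17.5 and 20.4 CPM to 22.2, 23.5 and 22.5 CPM in TRAP1 KO. The effects were 0.68 ± 0.12 (adjusted p = 0.000243) and 0.35 ± 0.13 (adjusted p = 0.0346), and their difference did not pass (adjusted p = 0.216). The TRAP1 KO call was lost when any of 5 of the 6 TRAP1 KO Mφ libraries was left out, all but control library 3, with adjusted p from 0.0535 to 0.173, and with all 27 libraries (adjusted p = 0.0607), and the WT call remained with all 27 libraries. With a batch term as well, the TRAP1 KO call was made (adjusted p = 0.0427). Clpp was lower in TRAP1 KO M2 cells in control medium by -0.40 ± 0.13 (adjusted p = 0.0289), which was lost without TRAP1 KO M2 control library 1 or WT M2 control library 2 or 4 (adjusted p from 0.0689 to 0.0938) and with all 27 libraries.

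Clpx varied widely within groups, from 11.3 to 24.3 CPM in WT Mφ in MPNST-CM and from 9.51 to 19.1 CPM in TRAP1 KO M2 cells in control medium, at 71 to 226 counts per library. It rose with MPNST-CM in TRAP1 KO M2 cells (0.61 ± 0.23, adjusted p = 0.0386), and it was lower in TRAP1 KO M2 cells than in TRAP1 KO Mφ in control medium (-0.75 ± 0.23, adjusted p = 0.0144). The first call was lost without any of 5 of the 6 TRAP1 KO M2 libraries, all but control library 1 (adjusted p from 0.0537 to 0.221), and with all 27. The second was lost without TRAP1 KO M2 control library 2 (adjusted p = 0.114) or TRAP1 KO Mφ control library 3 (adjusted p = 0.0557), and remained with all 27 libraries.

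Phb2 encodes a prohibitin of the inner membrane ring. Its libraries were at 132, 113 and 131 CPM in WT Mφ in MPNST-CM against 99.1, 119 and 94.1 CPM in TRAP1 KO, groups that overlap (-0.27 ± 0.08, adjusted p = 0.0133). This call was lost without library 1 or 3 of either group (adjusted p from 0.0549 to 0.0993) and with all 27 libraries. In M2 cells in control medium the libraries were at 143, 130 and 134 CPM in WT and 102, 108 and 98.5 CPM in TRAP1 KO, with no overlap (-0.40 ± 0.08, adjusted p = 0.00144; adjusted p = 0.0544 with all 27 libraries). MPNST-CM raised Phb2 by 0.33 ± 0.08 in WT Mφ (adjusted p = 0.00584) and lowered it by -0.37 ± 0.08 in WT M2 cells (adjusted p = 0.00158), and neither was called with all 27 libraries. With all 27 libraries and a batch term both were called (adjusted p = 0.0113 and 0.0453). So were the genotype differences in Mφ in MPNST-CM (adjusted p = 0.0357) and in M2 cells in control medium (adjusted p = 0.00439), the latter with the labels as they stand.

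IL-4 in control medium raised 8 of the 10 genes in WT. Beside Trap1, the rises ran from 0.28 ± 0.08 for Hsp90aa1 (adjusted p = 0.00670) to 0.71 ± 0.11 for Hspd1 (adjusted p = 1.28e-05), with Clpp at 0.66, Hspe1 at 0.56, Hspa9 at 0.52, Phb2 at 0.44 and Hsp90ab1 at 0.42. The Hsp90aa1 call was lost without WT M2 control library 3 (0.23, adjusted p = 0.0518). With batch 2 included, the calls of Hspd1, Clpp, Hspe1, Phb2 and Hsp90ab1 remained, and those of Trap1 (adjusted p = 0.554), Hsp90aa1 (0.278) and Hspa9 (0.317) were lost. In TRAP1 KO the genes that rose with IL-4 were Hsp90aa1 (0.54), Hsp90ab1 (0.50), Hspa9 (0.32) and Lonp1 (0.30), and Lonp1 was lost when any of 7 libraries was left out (adjusted p from 0.0507 to 0.222). When batch 2 was added, Hsp90aa1 was lost (adjusted p = 0.0817), and Hspa9 was at 0.96 and Lonp1 at 0.73. Both values include the library labelled TRAP1 KO M2, control medium, replicate 4 (Hspa9 441 CPM, Lonp1 118 CPM), with its label as it stands. Neither call held with all 27 libraries and a batch term. In batch 1, Hspd1 gave 0.28 ± 0.12 with IL-4 in TRAP1 KO (adjusted p = 0.0721). Whether the IL-4 effect differed between genotypes was not tested. In MPNST-CM, Hsp90aa1 was lower in WT M2 cells than in WT Mφ (-0.30 ± 0.08, adjusted p = 0.00746), as were Phb2 (-0.26) and Hspe1 (-0.26, adjusted p = 0.0499). Leaving out WT M2 MPNST-CM library 3 ended the Hsp90aa1 call (adjusted p = 0.0502), and 5 libraries ended that of Phb2 (adjusted p from 0.0522 to 0.125) and 21 of 24 that of Hspe1. In TRAP1 KO in MPNST-CM, Hsp90aa1 was higher in M2 cells (0.28 ± 0.08, adjusted p = 0.0214), a call lost without TRAP1 KO Mφ MPNST-CM library 1 or 2 or TRAP1 KO M2 MPNST-CM library 2 (adjusted p from 0.0793 to 0.127). With all 27 libraries none of these calls between M2 cells and Mφ in MPNST-CM was made.

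Partner genes were taken from lists by function, and their counts are given for Mφ and M2 cells in MPNST-CM, TRAP1 KO over WT, where 19.1% of all genes were higher and 19.2% lower in Mφ and 17.2% higher and 16.8% lower in M2 cells (median log2 0.04 and 0.05). Of 14 HSP90 co-chaperones tested, 0 were higher and 7 lower in Mφ (list median -0.53) and 1 was higher and 6 lower in M2 cells (-0.20). With batch 2 included, 7 and 6 were called. The largest changes in both were in Fkbp5, an HSP90-binding immunophilin (-1.50 and -1.18), Ahsa1, which stimulates the HSP90 ATPase (-1.15 and -0.59), and Nudc (-1.12 and -0.55). In WT Mφ, 6 co-chaperones rose with MPNST-CM and 0 fell, against 11.3% and 9.96% of all genes, led by Fkbp4 (0.86), Fkbp5 (0.60) and Stip1 (0.48), and with all 27 libraries 3 were called. Hsp90b1, the HSP90 of the endoplasmic reticulum, was lower in TRAP1 KO M2 cells (-0.56, adjusted p = 0.00161), a call lost with all 27 libraries, and gave -0.29 in Mφ (adjusted p = 0.0811).

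Of the 14 genes of the cytosolic chaperonin and prefoldin, 1 was higher and 7 were lower in TRAP1 KO Mφ in MPNST-CM (median -0.32), and 2 were higher and 5 lower in M2 cells (-0.14), against 19.1% higher and 19.2% lower of all genes in Mφ and 17.2% and 16.8% in M2 cells. When batch 2 was added, 8 and 5 were called. The 3 subunits of the ring with the largest changes in both were Cct3 (-0.78 and -0.60), Tcp1 (-0.65 and -0.56) and Cct6a (-0.65 and -0.51). Of 13 tested genes of cytosolic HSP70, HSP110 and HSP40, with Bag3, 5 were higher and 1 lower in Mφ (list median -0.005). In M2 cells 4 were higher and 1 lower (-0.005). The shares of all genes were those just given. The small heat shock protein genes of this list, Hspb1 and Hspb8, did not pass the filter on low counts. The higher genes included Hspa1a, an inducible HSP70 (1.08 and 0.56), and Hspa2 (0.83 and 0.81), at 5.68 CPM or less for Hspa2. In the fit with batch 2, 5 and 1 were called, and Hspa1a shares near-identical sequence with Hspa1b, so its value is uncertain.

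In the mitochondrion, 0 of 13 further protease and quality control genes tested were higher and 7 lower in TRAP1 KO Mφ in MPNST-CM (median -0.38), and 3 were lower in M2 cells (-0.13), where 19.2% of all genes were lower in Mφ and 16.8% in M2 cells, a share to which the count in M2 cells is close. They included Phb, the partner of Phb2 (-0.74 and -0.53), Parl, a rhomboid protease (-0.56 and -0.27), and, in Mφ, Pitrm1 (-0.70). With batch 2 included, 5 and 2 were called. Of 19 import genes, 1 was higher and 8 were lower in Mφ (-0.25), and 1 was higher and 4 were lower in M2 cells (-0.13), the latter also close to 16.8%, with 7 and 2 called with all 27 libraries. Timm8a1 (-1.34 and -1.70) and, in Mφ, Timm23 (-1.26) changed most but lay at or below 6.22 CPM, and Timm50 was at 8.91 CPM in TRAP1 KO and 17.8 CPM in WT Mφ (-0.99). Of 9 partners of Hspa9, edgeR's quasi-likelihood test called 0 in Mφ (list median -0.15; 1 at an unadjusted p under 0.05, and 0 to 1 called over the other settings, DESeq2 included). In M2 cells Dnajc15 was lower (-0.31, adjusted p = 0.0173) and the list median was -0.04; with all 27 libraries 0 were called.

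Among 12 stress and biogenesis regulators tested, Atf5 and Ddit3, transcription factors of the integrated stress response, were higher in TRAP1 KO in MPNST-CM. Atf5 was at 215 CPM in TRAP1 KO and 25.9 CPM in WT Mφ (3.06 ± 0.12, adjusted p = 6.86e-17), and at 234 and 63.1 CPM in M2 cells (1.89 ± 0.11). Ddit3 gave 2.07 in Mφ and 1.90 in M2 cells. Ppargc1b, a coactivator of mitochondrial biogenesis, fell by 1.25 in Mφ and 1.18 in M2 cells, and Myc fell by 1.96 in M2 cells, where it was at 4.64 and 18.2 CPM. In all, 3 of the 12 were higher and 2 lower in each cell state, counts near the shares of all genes (19.1% and 19.2% in Mφ, 17.2% and 16.8% in M2 cells), and with all 27 libraries 2 were called in Mφ and 0 in M2 cells.

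Genes whose level across libraries was most like that of a chaperone were ranked by Pearson r of log2 CPM among genes with a mean of at least 10 CPM. Over the 12 WT libraries, Trap1 was most like Myh9 (r = 0.95), Cox4i1 (0.94), Ube2j2 (0.93), Pygo2 (0.93) and Cox8a (0.91), of 8195 genes compared. Over all 24 libraries, Hsp90aa1 was most like Nop58, Bzw2 and Prmt3 (0.95, 0.94 and 0.94), Hsp90ab1 most like Slc48a1, Uxs1 and Tsr1 (0.93 each), and Hspd1 most like Utp20, Id2 and Usp10 (0.95, 0.95 and 0.94). These libraries share groups and scaling, so the values are descriptive.

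The 5 tested genes on each side of Trap1 in RefSeq order were read because a targeted allele can affect its neighbours. In all, 6 calls were made among the 10 genes in the 4 genotype comparisons, in Cluap1 (0.55 in Mφ and 0.66 in M2 cells, both in MPNST-CM), Nlrc3 (-0.79 in Mφ in control medium), Adcy9 (0.31) and Gm6142 (1.06) in M2 cells in control medium, and Tfap4 (-1.22 in Mφ in MPNST-CM). None of the 10 was called in all 4 comparisons, in each of which between 2238 and 5207 of the 13614 genes tested were called.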

How the data were processed

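RNA of 27 macrophage libraries was measured by 3′ mRNA-seq (QuantSeq), which reads mRNA ends by strand. The authors trimmed reads with Trimmomatic, mapped them with HISAT2, removed reads of low mapping quality with Samtools and counted genes with featureCounts. The raw count per gene was deposited, with no normalization. The labels name mm39 and the methods mm10, versions are not given in the sources used here, and 5 of 32 columns, which match no described library, were not used.

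Counts of the 24 batch 1 libraries (median total 7872887) were fitted in 1 model of 8 groups with edgeR 4.0.16 (TMM, filterByExpr, robust quasi-likelihood test; limma 3.58.1, R 4.3.3), with Benjamini-Hochberg adjustment over all 13614 genes tested and calls at 0.05. DESeq2 1.42.0 was an alternative. Values after ± are SE for log2 fold changes and SD for levels. Ratios were compared by two-sided exact permutation tests. Leaving out a library leaves 2 in its group, which share the spread of all groups. A floor of 3 counts covers counting error only. Replicate pairs differed by more than sampling noise (24 pairs). The script was tested on simulated data. The 10 genes and the lists of partner genes were chosen with earlier results of these data known. From each list, counts and up to 3 of the called genes with the largest change are given. Phb is the table's symbol for prohibitin 1.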

Additional observations from a re-analysis of the deposited data

Results flagged for a closer look

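The effect of MPNST-CM differed between TRAP1 KO and WT, by the interaction test, for Hsp90aa1 (-0.75 log2 in Mφ and -0.42 in M2 cells), Hspd1 (-1.09 in Mφ), Hspe1 (-0.64 in Mφ) and Hspa9 (0.57 in Mφ and 0.88 in M2 cells). Of these, the difference of Hspd1 in Mφ remained with all 27 libraries.

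In the 3 groups with 4 libraries, the highest or lowest library was far from the rest (Dixon's 95% value) in 8 of 29 sets, and all 8 were batch 2 libraries. Chance flags about 1 in 20, though Trap1 holds no such chance, since with the other 3 libraries at 0 any count would be flagged. In the library labelled TRAP1 KO M2, control medium, replicate 4, these were Trap1 (0.190 CPM from 2 counts, against 0 in the others), Hspa9 (441 CPM) and Lonp1 (118 CPM). In the library labelled TRAP1 KO M2, MPNST-CM, replicate 4, they were Hsp90ab1 (1828 CPM), Hspd1 (72.7 CPM), Hspa9 (163 CPM), Lonp1 (44.3 CPM) and Phb2 (135 CPM). Whether the medium labels of these 2 libraries were exchanged was not tested.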

How the results depend on the processing

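All 10 genes were recomputed with other settings, 1 at a time. Of 66 called differences, 65 stayed called with median-of-ratios factors, 65 with DESeq2, 58 with no filter on low counts, 58 with the compared groups fitted alone, 28 with all 27 libraries and 32 with all 27 and a batch term; 24 were kept in all 31 settings. With all 27 libraries 2 reversed, Hspa9 in M2 cells in control medium by genotype (0.23) and Lonp1 by medium in TRAP1 KO M2 cells (-0.18, and -0.10 with the batch term). Both rest on the batch 2 TRAP1 KO M2 libraries with their medium labels as they stand; whether those labels were exchanged was not tested. The replicate block, a paired fit by replicate number, kept 64 and lost 2 (Clpp by genotype in M2 cells in control medium and Trap1 by IL-4), and called 5 in place of 3 genes for the medium in WT M2 cells. The correlation of same-numbered libraries averaged 0.164, against -0.0628 for others, and replicate 4 of WT M2 cells is alone in its block. Without 1 library, 1494 of 1584 values stayed called. The count of the 10 genes called then ran from 2 to 4 for the medium in TRAP1 KO Mφ, 3 to 6 for IL-4 in TRAP1 KO, 0 to 3 for M2 over Mφ in MPNST-CM in WT and 0 to 1 in TRAP1 KO.

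Over all genes, the numbers called with all 27 libraries, then with a batch term, were 854 and 843 (genotype, Mφ, control medium; 2261 in batch 1), 3097 and 3297 (Mφ, MPNST-CM; 5207), 1137 and 1146 (M2, control medium; 2238), 1681 and 1839 (M2, MPNST-CM; 4627), 958 and 1267 (medium, WT Mφ; 2889, and 1898 with the groups alone), 2647 and 2826 (TRAP1 KO Mφ; 4476), 1014 and 1210 (WT M2; 3330), 826 and 988 (TRAP1 KO M2; 5016), 2216 and 2045 (IL-4, TRAP1 KO, control medium; 3883), 1204 and 1376 (M2 over Mφ in MPNST-CM, WT; 3392, and 1941 alone), 475 and 535 (TRAP1 KO; 1522), 653 and 777 (interaction, Mφ; 2683) and 180 and 269 (M2; 2751). Of the 10 genes, the same fits called 5 by genotype in Mφ in MPNST-CM and 3 in M2 cells in control medium (all 27), 3 by medium in WT Mφ (all 27), 1 and 2 in TRAP1 KO Mφ, 0 and 1 in WT M2, 0 and 0 in TRAP1 KO M2, 5 and 5 by IL-4 in WT, 2 in TRAP1 KO (batch term), 0 and 0 between M2 cells and Mφ in MPNST-CM in either genotype, and 1 and 1 (Mφ) and 0 and 0 (M2) for the interaction. With no filter 0 were called for WT M2 over Mφ in MPNST-CM, as with the groups alone, and 4 for the M2 interaction. With all 27 libraries the ratio of Hsp90aa1 to Hsp90ab1 moved to -0.18 (genotype, M2, control medium) and -0.0654 (IL-4, TRAP1 KO), and that of Hspe1 to Hspd1 to 0.10 (medium, TRAP1 KO M2).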
